A study of Musa acuminata AAA Group with 12 samples.

Results

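The genes described here were below an FPKM of 1 in every day 1 library of banana pulp and at or above 1 in every day 7 library. FPKM is a transcript level, namely the sequenced fragments of a gene scaled by its length and by the depth of the library. Of the 35273 gene rows in the tables, 481 met both conditions. The 150 members of the set were chosen by these FPKM values, as the first 150 of the 481 when ranked by the lowest of the 6 day 7 values. Pulp came from ethylene-treated Cavendish fruit (Musa acuminata, AAA Group) in 4 groups of 3 biological replicates (a, b and c): day 7 chitosan-coated (7A), day 7 control (7K), day 1 chitosan-coated (1A) and day 1 control (1K). Coated fruit was dipped in 1.25% chitosan and control fruit was left uncoated.

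Banana is a climacteric fruit, in which a burst of ethylene and respiration accompanies ripening. Ethylene is perceived by membrane receptors, and the signal ends in transcription factors that turn on genes for softening, starch breakdown, pigment change and aroma. Chitosan, a chitin-derived polysaccharide, dries on the peel to an edible coating that slows gas exchange. The deposited tables pair the gene IDs with no product names, and 0 of the IDs matched the RefSeq gene table of another banana assembly, so no role is given to any single gene and the pulp label was not checked against marker genes.

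Each table also holds the 95% confidence interval of every FPKM, from which the number of fragments behind a value follows. These fragments summed to between 11078141 and 16553611 in 11 libraries and to 6136363 in 7A_c, so low values were measured most coarsely there. Intervals and fragments cover counting error only. In a principal component analysis of the genes tested, the first component (63.8% of the variance) separated the days. The second component (22.3%) separated 7A_c, 7K_c, 1A_a, 1A_b and 1K_c, which the study lists with the lower read GC percentage, from the other 7 libraries. This library group is even between coated and control fruit at day 7 and uneven at day 1.

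The members had a trace signal on day 1 and a clear one on day 7, as the rule demands, and no test is given for that difference. Their median FPKM was 6.24, 5.91 and 5.05 in 7A_a, 7A_b and 7A_c and 7.07, 8.60 and 6.93 in 7K_a, 7K_b and 7K_c. It was 0.255, 0.242 and 0.361 in 1A_a, 1A_b and 1A_c and 0.322, 0.330 and 0.330 in 1K_a, 1K_b and 1K_c. Every coated day 7 library thus lay below every control day 7 library in this median. A typical member rested on 51.1 to 177 fragments in a day 7 library and on 4 to 6 fragments in a day 1 library. "Switched on" describes the FPKM limit and not an empty start, because 101 of the 150 members had an FPKM above 0 in all 6 day 1 libraries and 3 were listed at 0 in all of them. The highest day 1 value of any member was 0.994. All 150 members passed the filter of the tests below (3 or more libraries with an FPKM of 1 or higher), which the rule itself guarantees. All 150 were also called higher at day 7 by limma in coated and in control fruit, against 29.2% and 31.1% of all genes tested, and nothing is read from that because the rule used those contrasts.

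**Figure D1:**
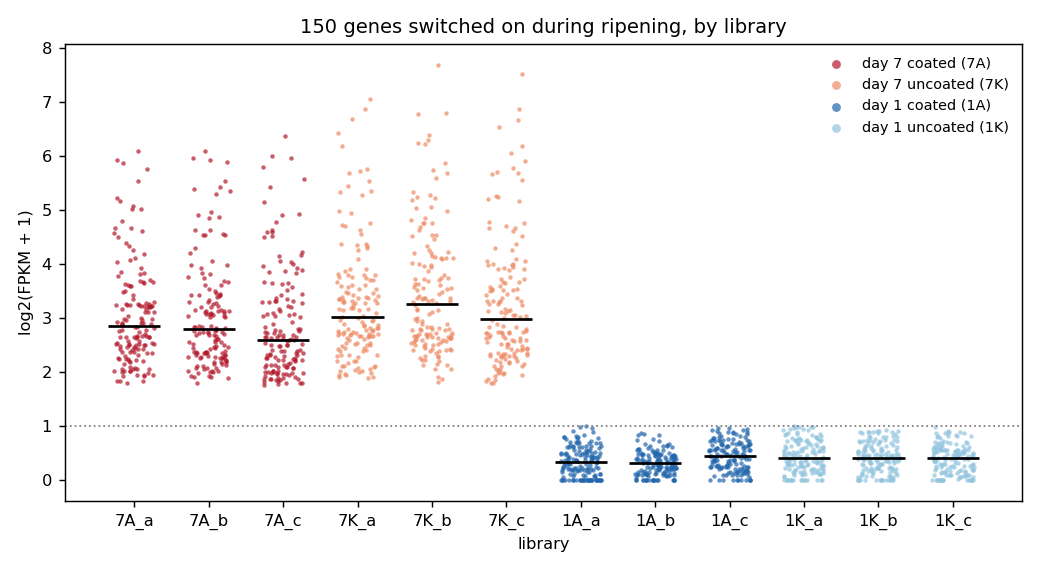
Each point is 1 of the 150 members in 1 library, with log2(FPKM + 1) on the vertical axis, the 12 libraries on the horizontal axis and a black bar at the median of each library. The dotted line marks an FPKM of 1, and the medians run from 2.60 to 2.86 in 7A and from 2.99 to 3.26 in 7K on this log2 scale.

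The set as a whole held a small part of the transcript signal. It made up 0.189% ± 0.029 of the FPKM sum in 7A and 0.264% ± 0.039 in 7K, against 0.0053% ± 0.0018 in 1A and 0.0063% ± 0.0010 in 1K (SD, n = 3 each). The 3 coated libraries had 0.156% to 0.208% and the 3 control libraries 0.223% to 0.300%, without overlap. The first 10 members carried 27.4% to 35.2% of the members' FPKM sum in the day 7 libraries. Most members were expressed at a low level even when on. The lowest day 7 value was at least 20 in 8 members, between 10 and 20 in 9, between 5 and 10 in 42 and under 5 in 91.

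Ma04_g30960 (chromosome 4, 31436164 to 31437067) led the ranking, with an FPKM of 59.9, 59.7 and 81.6 in 7A_a, 7A_b and 7A_c and of 101, 77.5 and 91.3 in 7K_a, 7K_b and 7K_c. On day 1 it was listed at 0, 0.157 and 0.392 in the 1A libraries and at 0, 0.167 and 0 in the 1K libraries. The coated and the control libraries of day 7 overlapped. Ma04_g21650 (chromosome 4, 24157485 to 24158477) was second and reached the highest values of the set, in control fruit. Its FPKM was 57.1, 58.1 and 62.5 in the 7A libraries and 132, 205 and 182 in the 7K libraries. It stood at 0.074, 0.068 and 0.505 in the 1A libraries and at 0, 0.145 and 0.153 in the 1K libraries. Coated and control fruit of day 7 were well apart for this gene, unlike for the gene ranked first.

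The next members by rank differed in how coated and control fruit compared. Ma10_g16150 (chromosome 10, 27970088 to 27971569) had an FPKM of 52.7, 61.5 and 42.1 in the 7A libraries and of 116, 109 and 101 in the 7K libraries, without overlap. Ma05_g08480 (chromosome 5, 6230888 to 6233507) leaned the other way, with 66.9, 66.8 and 46.3 in 7A and 51.8, 37.5 and 36.9 in 7K, and the libraries overlapped. Ma08_g31580 and Ma09_g25750 were nearly level, with means of 42.8 ± 9.90 in 7A and 47.6 ± 7.55 in 7K for the first and of 33.9 ± 5.27 in 7A and 34.3 ± 3.43 in 7K for the second (SD, n = 3 each). Both were slightly lower in 7A as deposited, and that direction turned for each with median-of-ratios scaling. Ma08_g31580 lies on chromosome 8 (42448682 to 42449563) and Ma09_g25750 on chromosome 9 (37133325 to 37134516). Ma01_g16820 (chromosome 1, 12309514 to 12314533) had 31.5, 45.4 and 61.3 in the 7A libraries and 40, 57.6 and 116 in the 7K libraries, the widest relative spread in 7K among the first 10.

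Ma04_g10370 (chromosome 4, 7372938 to 7374586) averaged an FPKM of 32.9 ± 9.12 in 7A and 53.3 ± 19.2 in 7K, and Ma03_g03790 (chromosome 3, 2510795 to 2511775) averaged 25.1 ± 8.74 in 7A and 42.4 ± 9.02 in 7K (SD, n = 3 each). Both overlapped between the groups. Among the first 10 members with more than 3 fragments in the day 1 group, the day 7 mean was 59.2 to 310 times the day 1 mean in coated fruit and 68.0 to 1747 times in control fruit. The upper end is Ma04_g21650, where 4 fragments in the 3 libraries of 1K stand in the denominator, so counting alone leaves the size of that ratio imprecise.

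The list ends at Ma04_g29580 and Ma10_g28220, with lowest day 7 values of 2.41 and 2.40. Ma03_g00680 and Ma07_g07410, at ranks 151 and 152, had 2.39 and 2.35 and fell outside it. The lower end of the list therefore separates genes that are practically alike. The members at 0 in all 6 day 1 libraries were Ma09_g26560, Ma03_g19070 and Ma03_g08030. Ma09_g26560 (chromosome 9, 37805231 to 37805564) had an FPKM of 7.95, 9.83 and 8.35 in the 7A libraries and of 13.0, 16.3 and 10.6 in the 7K libraries, without overlap. Ma03_g08030 (chromosome 3, 5769589 to 5771312) was uneven within both groups, with 11.2, 5.4 and 13.4 in 7A and 2.92, 13.6 and 3.45 in 7K. Ma03_g19070 (chromosome 3, 24505068 to 24505317) is among the shortest loci, and its values of 5.54, 7.45 and 21.9 in 7A and 12.5, 9.84 and 26.4 in 7K rest on 31 and 68 fragments in all. In both groups its c library was the highest.

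The members were spread over all 11 chromosomes, from 8 on chromosome 1 to 20 on chromosome 3, which is 0.408% of the tested genes on chromosome 6 at the low end and 1.03% on chromosome 3 at the high end. Their loci were short, with a median span of 1735 bp (249 to 42299 bp) against 4285 bp over all genes tested. No 2 members lay next to each other in the gene order. A single pair lay within 50000 bp. Ma10_g28180 and Ma10_g28220 on chromosome 10 are 15329 bp apart, with 3 genes between them. Ma10_g28180 (35166418 to 35167107) had an FPKM of 8.56, 5.34 and 8.92 in the 7A libraries and of 11.2, 36.9 and 25 in the 7K libraries. Ma10_g28220 (35182436 to 35184045) had 2.79, 3.04 and 2.40 in the 7A libraries and 4.59, 6.89 and 5.56 in the 7K libraries. Both were lower in every coated than in every control library. Of the 3 genes in between, chosen for mention after their values were seen, Ma10_g28210 met the rule as well but ranked after 150. Its FPKM was 1.89, 2.66 and 1.30 in the 7A libraries and 5.60, 5.14 and 3.68 in the 7K libraries, again without overlap, while Ma10_g28190 was listed at 0 in all 12 libraries and Ma10_g28200 did not exceed 0.312.

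Whether chitosan changed the level that switched-on genes had reached was asked by comparing 7A with 7K. The rule did not use the coating labels, although the ranking used the day 7 values of both groups alike. The fit, however, takes 1 spread per gene from all 12 libraries. The rule held the members' day 1 values among them under an FPKM of 1. Their limma p-values therefore rest in part on values that the rule used. In a fit of the 6 day 7 libraries alone, 0 members and 0 of all 18246 genes were called. Without adjustment, 33 members were lower and 1 higher there (limma p-value under 0.05), against 573 and 172 of those genes. In bulk pulp, fewer cells of a type and less RNA per cell cannot be told apart. Of the 150 members, 5 were lower in coated fruit and 0 were higher (limma on log2(FPKM + 1), adjusted p-value under 0.05 over all 19746 genes tested). Over all genes tested, 12 were lower (0.0608%) and 16 higher (0.081%). Without adjustment, 42 members were lower and 5 higher at a limma p-value under 0.05, against 6.11% lower and 1.52% higher over all genes tested.

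Ma10_g00200 (chromosome 10, 1436215 to 1437394) had the largest difference on the log2(FPKM + 1) scale. Its FPKM was 21.7, 22.1 and 16.8 in the 7A libraries and 84.7, 74.4 and 58.8 in the 7K libraries, a log2 fold change of -1.79 ± 0.19 (SE, limma, adjusted p = 0.00996). The lowest control library was well above the highest coated library. By the ratio of FPKM means Ma07_g08700 came first, at 0.265 against 0.278 for Ma10_g00200. Ma07_g08700 (chromosome 7, 6463246 to 6481252) had 2.83, 3.42 and 4.32 in the 7A libraries and 12, 12.3 and 15.6 in the 7K libraries, a log2 fold change of -1.66 ± 0.17 (SE, limma, adjusted p = 0.00996). On day 1 it was at or under 0.137 in all 6 libraries.

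For Ma04_g21650, whose values are given above, the log2 fold change was -1.51 ± 0.20 (SE, limma, adjusted p = 0.0194). Ma05_g05480 (chromosome 5, 4156951 to 4159084) had an FPKM of 4.69, 6.16 and 3.98 in the 7A libraries and of 16.1, 16 and 14.8 in the 7K libraries. Its log2 fold change was -1.50 ± 0.16 (SE, limma, adjusted p = 0.00996). Ma05_g25200 (chromosome 5, 37208096 to 37209336) had 3.15, 3.19 and 3.44 in the 7A libraries and 7.94, 9.35 and 11.5 in the 7K libraries, a log2 fold change of -1.30 ± 0.16 (SE, limma, adjusted p = 0.0132). In all 5 genes the mean of coated fruit was between 0.265 and 0.342 times that of control fruit, and no coated library reached a control library.

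**Figure D2:**
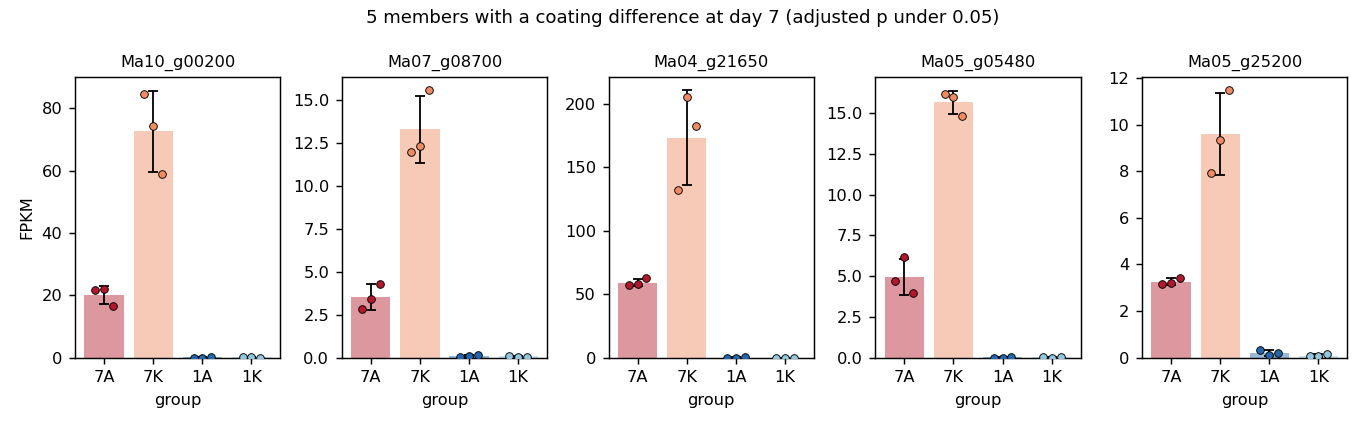
Points are single libraries, bars are group means and error bars are SD (n = 3), in FPKM on a linear axis that starts at 0 and differs between panels. In each of the 5 genes the 3 libraries of 7A lie below the 3 libraries of 7K, and the 6 day 1 libraries lie near 0.

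These calls depended on the pseudocount, the scaling and the terms of the fit. With a pseudocount of 0.1 none of the 5 passed (limma, adjusted p from 0.0566 to 0.511), and 2 passed with median-of-ratios scaling and with voom on the implied fragments. Over all genes, these fits called 11 of 19746, 16 of 19501 and 18 of 19746. The replicate letters deviated together between 7A and 7K (r across genes of 0.712, 0.466 and 0.855 for a, b and c), but 7A_b with 7K_a (0.668) and 7A_a with 7K_b (0.482) did so too. With the letter as a block in the fit of all 12 libraries 1 member was called, Ma07_g08700, lower in 7A (adjusted p = 0.0457 from limma), against 0.0101% lower and 0% higher over all genes tested. With the same block in the 6 day 7 libraries, chosen after seeing the data, 26 members were lower and 3 higher, all 5 among them, against 2.23% lower and 0.91% higher over the genes tested there. With a term for the library group 35 members were lower and 3 higher, again with all 5 among them, against 7.2% lower and 1.87% higher over all genes tested. Without 7K_b no member passed (adjusted p of the 5 genes from 0.0657 to 0.114), with the 6 day 7 libraries and no block none did (0.228 to 0.459), and without 7A_b and without 7K_c 3 did. Without 7A_c, the library with the fewest fragments, 5 passed. Over all genes, 1 of 19528 was called without 7K_b and 12 of 19571 without 7A_b. Without 7K_c 7 of 19621 were called, and without 7A_c 22 of 19662.

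The set as a whole, the called genes included, leaned to lower values in coated fruit. All 3 libraries of 7A were below all 3 of 7K in 39 of the 150 members (26%), where 9.83% of all genes tested did the same. In these 39 members the control mean was 1.22 to 3.77 times the coated mean, with a median of 1.71. All 3 coated libraries were above all 3 control libraries in 3 members (2%, against 1.98% of all genes tested). The mean of 7A was under 0.5 times that of 7K in 20 members (13.3%, against 2.96% of the genes tested with a mean above 0 in 7K) and over 2 times in 1 member (0.667%, against 1.33%). The log2 fold change was above 0 in 17.3% of members and 27.6% of all genes tested. Its median was -0.28 over the members, with quartiles of -0.57 and -0.07, and -0.13 over all genes tested. The 331 genes that met the rule but ranked after 150 had a median of -0.17, and 56 of them (16.9%) were lower in all 3 coated libraries.

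**Figure D3:**
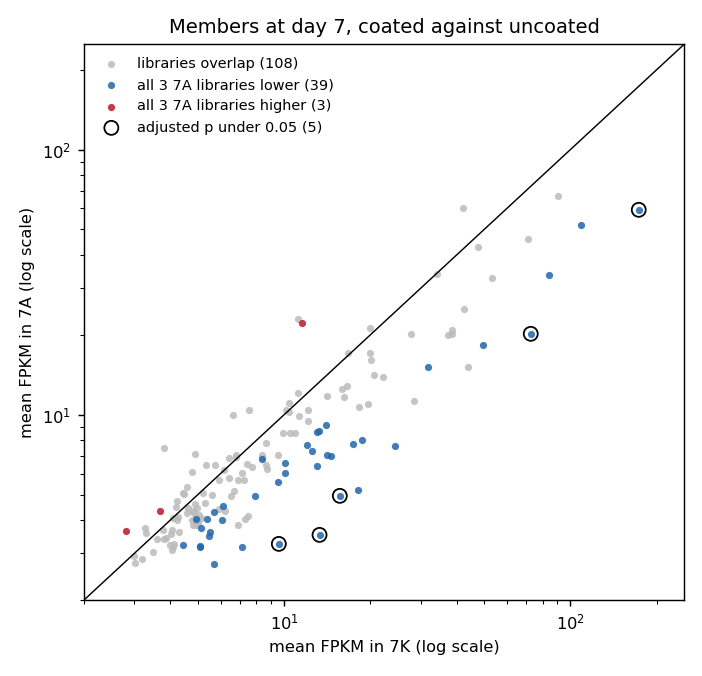
Each point is a member, with its mean FPKM over the 3 libraries of 7K on the horizontal and of 7A on the vertical axis, both logarithmic, and the line marks equal means. The 39 members lower in all 3 coated libraries lie below the line over the whole range of levels, 3 members lie above it without overlap, and circles mark the 5 with an adjusted p-value under 0.05.

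The size of this lean depends on the scaling, since the median gene is lower in coated fruit in FPKM as deposited. Median-of-ratios scaling moved the median log2 fold change of all genes tested to 0.00 and that of the members to -0.14. Relative to all genes tested, the members stood at -0.15 as deposited and at -0.14 after median-of-ratios scaling, on the log2 scale. This shift was -0.076 without 7A_a, -0.10 without 7A_b and -0.10 without 7K_c. With that scaling 26 members were lower in all 3 coated libraries (17.3%, against 4.71% of all genes tested). All 3 coated libraries were above all 3 control libraries in 8 of the 150 members, against 5.15% of all genes tested. Within the library groups taken separately, 7A_a and 7A_b were both below 7K_a and 7K_b in 84 members (56%, against 34.7% of all genes tested), and 7A_c was below 7K_c in 123 members (82%, against 75.9%).

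**Figure D4:**
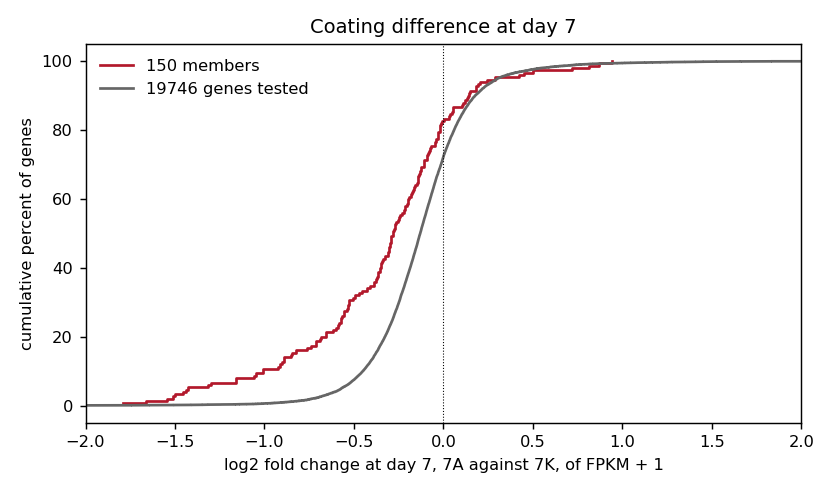
The curves give the cumulative percent of genes, on the vertical axis, at or below a log2 fold change of FPKM + 1 between 7A and 7K, on the horizontal axis, for the 150 members and for the 19746 genes tested. The curve of the members lies to the left over most of its range, with a median of -0.28 against -0.13.

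As deposited, 26 of the 150 members had a value above 0 in coated against control fruit. There were 51 (34%, against 50.1% of all genes tested) with median-of-ratios scaling and 53 (35.3%, against 48.9%) with quantile normalization. The largest positive values were those of Ma11_g22550, Ma06_g27470 and Ma11_g22170. Ma11_g22550 (chromosome 11, 26292564 to 26295146) had an FPKM of 26.9, 30.2 and 11.8 in the 7A libraries and of 10, 16.4 and 7.17 in the 7K libraries, which overlapped. Ma06_g27470 (chromosome 6, 29466411 to 29467242) had 24.3, 27.9 and 14.5 in the 7A libraries and 13.9, 12.9 and 7.94 in the 7K libraries, without overlap. In both genes the c library was the lowest of its group, coated and control alike. Ma11_g22170 (chromosome 11, 26031631 to 26033322) had 8.36, 9.54 and 4.58 in the 7A libraries and 3.61, 5.28 and 2.49 in the 7K libraries. None of the 3 passed the test (limma, adjusted p = 0.517, 0.438 and 0.496), and all 3 passed it with the term for the library group (limma, adjusted p = 0.0365, 0.0212 and 0.0138). Ma05_g11740 (chromosome 5, 8601879 to 8603120) had the third lowest log2 fold change, -1.54, with 5.88, 3.93 and 5.77 in the 7A libraries and 9.09, 22.2 and 23.3 in the 7K libraries (limma, adjusted p = 0.13). It did not pass, and its control libraries were far apart.

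The rise from day 1 to day 7 was compared between coated and control fruit as an interaction term. It was smaller in coated fruit for 5 members and larger for 0 (limma, adjusted p-value under 0.05), against 1.71% and 0.674% of all genes tested. At an unadjusted p-value under 0.05 it was smaller for 27 and larger for 3 members, against 9.94% and 3.91% of all genes tested, and the value was above 0 in 28% of members and 43.9% of all genes tested. With the library-group term it was smaller for 23 members and larger for 2, where 14.1% of all genes tested were lower and 5.91% higher. The 5 called were the same 5 genes. The test shares the libraries 7A and 7K with the coating comparison of day 7, so it is no separate evidence. The rule also held the members' day 1 values under an FPKM of 1, which caps the day 1 part of the term. All genes tested carry no such cap as a set, so nothing is read from the members' counts beside theirs. The differences on the log2 scale were -1.69 for Ma07_g08700, -1.66 for Ma10_g00200, -1.64 for Ma04_g21650, -1.48 for Ma05_g05480 and -1.44 for Ma05_g25200, each with a standard error between 0.22 and 0.28 (limma). With voom on the implied fragments 0 members were called for the interaction, against 159 lower and 114 higher of all 19746 genes tested. At an unadjusted limma p-value under 0.05 in that fit, 5 members were lower and 8 higher, against 1596 and 935 of those genes.

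On day 1, no member was called between coated and control fruit (limma, adjusted p-value under 0.05). The rule held every day 1 value of a member under an FPKM of 1, which caps this difference on the log2(FPKM + 1) scale, so nothing is read from the members' counts beside those of all genes. With a pseudocount of 0.1, 4 members were called, against 995 of all 19746 genes tested. In the fit reported, the shares called over all genes tested were 3.46% higher and 2.16% lower. The day 1 log2 fold change there was above 0 in 40.7% of members and 41.4% of all genes tested. At an unadjusted limma p-value under 0.05, 2 members were lower and 0 higher, against 7.93% and 8.76% of all genes tested. Voom on the implied fragments called 2 members, against 1020 of all 19746 genes tested. A typical day 1 value rested on 4 to 6 fragments, and what this depth could detect was not tested. The 2 genes, named after their values were seen, were Ma05_g30550 and Ma07_g19550. Ma05_g30550 had an FPKM of 0.162, 0.147 and 0.0729 in the 1A libraries and of 0.670, 0.816 and 0.832 in the 1K libraries, from 12 and 70 fragments in all. It did not pass (limma, adjusted p = 0.105). At day 7 it was also lower in each coated library, with 11.0, 7.56 and 5.59 in 7A and 18.6, 19.3 and 18 in 7K. Ma07_g19550 had 0.143, 0.131 and 0.0813 in the 1A libraries and 0.785, 0.279 and 0.885 in the 1K libraries, but was higher in each coated library at day 7, with 3.18, 3.53 and 4.22 in 7A and 2.68, 2.77 and 2.94 in 7K.

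Genes next to the members were not used by the rule. Of the 300 adjacent genes 198 passed the filter, and 57 of them (28.8%) were called higher at day 7 in both coated and control fruit, against 23.5% of all genes tested. Among the 135 adjacent genes at least 1000 bp away the share was 27.4%. Both shares are near that of all genes, so they are no result about the members. The median log2 fold change of the adjacent genes was 0.41 in coated and 0.41 in control fruit, against 0.34 and 0.37 over all genes tested, and 2.38 and 2.62 in the members themselves.

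The library group was also compared with the members' day 7 values. In 45 members 7A_c and 7K_c were both below the other 4 day 7 libraries (30%) and in 18 both were above them (12%), against 45.3% and 17% of all genes tested. The ranking used these same day 7 values and works against genes that are low in any of the libraries. Nothing is therefore read from the members' shares beside those of all genes. The part of the library group in these values was not tested. Replicates of a group varied over the members with a median coefficient of variation of 25% in 7A and 21.9% in 7K. Over all genes tested it was 33.4% in 7A and 28.4% in 7K. The choice of members works against a low value in any day 7 library, so nothing is read from this difference.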

How the data were processed

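Pulp RNA of 12 libraries was sequenced in 4 groups of 3 replicates, grouped by the labels. The authors checked reads with FastQC, mapped them with TopHat to the DH Pahang version 2 genome and deposited FPKM per gene from Cufflinks (version 2.2.2.1 in the submitters' processing notes), with the bounds of its 95% confidence interval. How multi-mapped reads were counted is not given in the sources used here. Positions are those of the deposited tables. Of the rows, 1 has no ID and 1 ID stands in more than 1 row.

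FPKM was not rescaled. All libraries entered a single limma fit (R 4.3.3, limma 3.58.1) with an intensity trend on log2(FPKM + 1), which understates changes of low genes, over genes that reached an FPKM of 1 in 3 or more libraries. p-values were adjusted by Benjamini-Hochberg over the 19746 genes tested and called under 0.05. Fragments behind an FPKM were derived from the width of its interval. Among genes with 0.5 to 10 fragments, 80.5% to 86.4% came out whole (tolerance 0.02). The fit was tested on simulated data, where 200 of the more highly expressed genes were given a log2 change of 1.5 at day 7. It recovered 105 of them (52.5%) and made 6 false calls. Tables and figures were made with Python 3.11.15, numpy 2.4.6, pandas 2.3.3 and matplotlib 3.10.9.

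The members, comparisons and alternatives were chosen with earlier results of these data known. Named are the first 10 members, ranks 149 to 152, the members called for coating at day 7 or the interaction, the 3 highest and 3 lowest coating differences at day 7, members within 50000 bp of another, and members at 0 in all day 1 libraries. Others are marked as chosen after seeing the values. Planned pathway lists needed gene names and were not run. The fit reported did not pair the replicate letters. Deviations of the same letter correlated between 7A and 7K (r of 0.712, 0.466 and 0.855), although a and b cannot be told apart (0.668 for 7A_b with 7K_a). The correlations of the same letter between 1A and 1K were negative (-0.607, -0.626 and -0.866). The letters are not said to mark shared fruit. Alternatives were other scalings, pseudocounts and filters, no trend, a replicate block, a term for the library group, voom on fragments, single days and each library left out.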

Additional observations from a re-analysis of the deposited data

Results flagged for a closer look

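The rise from day 1 to day 7 differed between coated and control fruit in 5 members by limma's interaction term, and was smaller in coated fruit in each. The log2 difference was -1.69 in Ma07_g08700, -1.66 in Ma10_g00200, -1.64 in Ma04_g21650, -1.48 in Ma05_g05480 and -1.44 in Ma05_g25200. The term shares its day 7 libraries with the coating comparison of that day. Its day 1 part is capped in the members, because the rule held their day 1 values under an FPKM of 1. Groups of 3 libraries were too small for a search for single libraries that stand apart.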

How the results depend on the processing

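The choice of members was steady except for the limit. Of the 150, 62 stayed with a limit of 0.5 FPKM and 61 with a limit of 2 FPKM, and at least 127 (without 7A_c) stayed when 1 library was left out. For coating at day 7, the 5 calls became 2 with median-of-ratios scaling, 0 with a pseudocount of 0.1, 1 with the replicate block, 38 with the term for the library group, 2 with voom, 0 with the 6 libraries of that day, and 0 to 6 when 1 library was left out (0 without 7K_b, 3 without 7A_b, 3 without 7K_c). Other alternatives were chosen after seeing the data. Among them, the library-group term gave 19 calls with quantile normalization (14 lower), 22 with median-of-ratios scaling (16 lower) and 24 in the 6 day 7 libraries. The replicate block in those libraries gave 29, and the a and b libraries of day 7 gave 3. Over all genes, these fits called, in that order, 802 of 19746, 1034 of 19501, 436 of 18246, 572 of 18246 and 5 of 19518. The members' median was -0.14 with median-of-ratios scaling and with quantile normalization, each with and without the library-group term. Relative to all genes tested it stayed negative in all 28 alternatives, from -0.22 to -0.08 (without 7A_a).

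For coating at day 1, the 0 calls became 1 with median-of-ratios scaling, 1 with quantile normalization, 4 with the pseudocount of 0.1 and 2 with voom. Over all genes, these fits called 1374 of 19501, 1296 of 19746, 995 of 19746 and 1020 of 19746. The library-group term gave 2, with quantile normalization added 7 (6 lower) and with median-of-ratios scaling added 8 (6 lower). Over all genes, these fits called 5090 of 19746, 4984 of 19746 and 5963 of 19501. The a and b libraries of day 7 gave 1, and leaving out 1 library gave 0 to 1 (1 without 7A_a, 1 without 7A_c). The median moved to -0.11 with that pseudocount and -0.13 with voom, and changed sign, to 0.00031, with the library-group term. No member could be tested in the 6 day 1 libraries alone, as none passed the filter. For the interaction, the 5 calls became 3 with scaling to a common sum, 1 with the pseudocount of 0.1 and 0 with voom. Over all genes, these fits called 287 of 19863, 381 of 19746 and 273 of 19746. The library-group term gave 25, 14 with quantile normalization added (median of -0.069) and 21 with median-of-ratios scaling added. Over all genes, these fits called 3947 of 19746, 3423 of 19746 and 4376 of 19501, a larger share than among the members each time. Leaving out 1 library gave 4 to 8 (8 without 7K_a). With voom, 5 members were lower and 8 higher at an unadjusted p-value under 0.05. With the replicate block the same 5 genes were called. Of the 198 genes next to members, 87 were higher at day 7 in both coated and control fruit with the library-group term. Taken singly, 99 were higher in coated and 115 in control fruit with that term, against 8749 and 10145 of all 19746 genes tested. In the fit reported, without that term, 37 of the 135 genes at least 1000 bp away were higher in both (27.4%, against 23.5% of all genes tested). The members lower in all coated libraries numbered 25 with quantile normalization (16.7%, against 4.94% of all genes tested). They numbered 42 to 63 when 1 day 7 library was left out, which leaves fewer libraries to overlap. There were 42 without 7A_b (28%, against 12.8% of all genes tested), 63 without 7A_c (42%, against 21.0%) and 60 without 7K_c (40%, against 23.5%). Ma09_g25750 changed direction at day 7 in 10 of 28 alternatives and Ma08_g31580 in 2, neither called in the fit reported. The causes of these shifts were not tested, and no alternative varied depth.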

Other observations

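At 3 places a member shares bases with another gene row, so fragments of the pair cannot be told apart with certainty there. Ma10_g24400 overlaps Ma10_g24410 by 92 bp, Ma02_g00490 overlaps Ma02_g00500 by 233 bp and Ma02_g09980 overlaps Ma02_g09970 by 195 bp. The partners Ma10_g24410 and Ma02_g09970 were expressed on both days, with a mean FPKM of 15.0 and 7.87 at day 7 and of 16.9 and 7.50 at day 1, while Ma02_g00500 averaged 1.35 at day 7 and 0.191 at day 1.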
